A study of Mus musculus with 4 samples.

Results

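Of the 69599 regions that 3 TLE3 ChIP-seq lists hold together, 1463 (2.10%, 95% Wilson interval 2.00 to 2.21%) carry the deposited annotation of a promoter, and they are described here. They were chosen by that annotation alone, after the lists had been joined by region identifier with repeats dropped, and are named by the gene given in the deposited table. The 1463 regions belonged to 1404 genes. Of these genes, 1347 had 1 promoter region, 55 had 2, and Tmcc3 and Gcnt2 had 3 each. Protein-coding genes held 1257 of the regions, genes of non-coding RNA 196, and snoRNA genes and pseudogenes 5 each.

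Binding of TLE3 was profiled by chromatin immunoprecipitation and sequencing in primary mouse adipocytes from brown fat (BAT), epididymal white fat (eWAT) and inguinal white fat (iWAT), with 1 TLE3 library for each depot and 1 input library, made from iWAT adipocytes without an antibody. Each culture started from stromal-vascular cells of male NMRI mice 4 to 5 weeks old, with fat from 10 to 15 animals pooled, and the brown fat joined interscapular, cervical and axillary depots. All cultures were differentiated with insulin at 30 nM and with the PPARγ agonist rosiglitazone at 1 µM, and were harvested 8 days after plating, with only cultures over 50% differentiated kept, so not all cells need have been adipocytes. Chromatin was cross-linked with 2 mM disuccinimidyl glutarate for 15 min and 1% formaldehyde for 30 min.

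TLE3 is a corepressor of the Groucho family. These proteins do not bind DNA themselves but are held at regulatory sites by DNA-bound factors, among them HES, RUNX and TCF/LEF proteins, and they recruit histone deacetylases. In fat cells TLE3 is known as a partner of PPARγ that favours lipid storage over the brown fat programme. A promoter is the stretch around a transcription start site where the general transcription machinery assembles. CpG-rich promoters are typical of genes active in most cells and CpG-poor ones of genes active in few cell types.

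Below are the bases before the start sites of 7 genes, shown because their TLE3 regions were centred there and because together they cover the kinds of promoter that the values separate. Camp, Olfr99, Hal and H6pd were among the highest in every TLE3 library, C1qc stands for the macrophage genes listed in eWAT alone, and Notch2 and Axin2 for the CpG-rich promoters listed in BAT alone. Each sequence is the 250 bases up to the base before the start, 5′ to 3′ in the direction of the gene, from RefSeq with the GRCm38.p6 build. In the first 5, capitals mark matches on either strand to a C/EBP motif (TTGCNNAA), an EBF motif (CCCNNGGGA), an NFI half-site (TTGGCA), the core of a PPAR-RXR element (AGGNCAAAG) or an ETS motif of the PU.1 kind (GAGGAAGT).
Camp: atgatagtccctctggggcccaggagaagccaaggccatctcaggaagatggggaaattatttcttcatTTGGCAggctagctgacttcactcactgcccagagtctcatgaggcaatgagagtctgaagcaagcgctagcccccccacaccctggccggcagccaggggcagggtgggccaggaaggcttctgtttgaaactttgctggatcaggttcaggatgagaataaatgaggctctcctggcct
Olfr99: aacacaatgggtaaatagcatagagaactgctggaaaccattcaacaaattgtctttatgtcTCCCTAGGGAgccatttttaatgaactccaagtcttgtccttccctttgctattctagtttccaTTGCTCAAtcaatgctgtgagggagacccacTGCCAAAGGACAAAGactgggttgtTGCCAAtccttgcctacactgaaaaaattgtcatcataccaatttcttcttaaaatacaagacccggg
Hal: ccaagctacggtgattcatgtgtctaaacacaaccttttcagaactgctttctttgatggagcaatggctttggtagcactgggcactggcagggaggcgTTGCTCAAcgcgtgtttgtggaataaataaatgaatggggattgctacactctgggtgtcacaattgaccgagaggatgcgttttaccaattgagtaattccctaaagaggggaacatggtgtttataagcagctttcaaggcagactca
H6pd: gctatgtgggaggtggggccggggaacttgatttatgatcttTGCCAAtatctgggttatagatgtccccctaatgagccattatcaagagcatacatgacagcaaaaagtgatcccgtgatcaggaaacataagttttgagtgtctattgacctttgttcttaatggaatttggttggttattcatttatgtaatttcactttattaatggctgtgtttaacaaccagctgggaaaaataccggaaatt
C1qc: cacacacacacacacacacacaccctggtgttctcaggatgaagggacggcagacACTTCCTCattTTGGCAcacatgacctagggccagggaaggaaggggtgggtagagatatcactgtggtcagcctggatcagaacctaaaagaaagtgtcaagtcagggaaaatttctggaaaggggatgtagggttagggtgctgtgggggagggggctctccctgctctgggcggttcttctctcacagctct
In the other two, capitals mark every CG pair.
Notch2: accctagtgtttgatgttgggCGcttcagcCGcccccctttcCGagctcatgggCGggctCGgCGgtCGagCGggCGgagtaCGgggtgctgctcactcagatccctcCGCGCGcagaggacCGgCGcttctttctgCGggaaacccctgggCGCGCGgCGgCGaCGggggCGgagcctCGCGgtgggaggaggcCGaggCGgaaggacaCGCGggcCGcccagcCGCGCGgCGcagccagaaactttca
Axin2: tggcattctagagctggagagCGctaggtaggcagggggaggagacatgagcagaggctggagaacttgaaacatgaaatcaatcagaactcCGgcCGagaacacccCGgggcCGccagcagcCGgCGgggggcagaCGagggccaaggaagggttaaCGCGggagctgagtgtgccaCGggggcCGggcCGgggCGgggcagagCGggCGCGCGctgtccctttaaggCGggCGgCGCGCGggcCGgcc
In GRCm38.p6 the windows are chr9:109849457-109849706 on the minus strand for Camp, chr17:37280419-37280668 on the minus strand for Olfr99, chr10:93488518-93488767 on the plus strand for Hal, chr4:150003237-150003486 on the minus strand for H6pd, chr4:136892915-136893164 on the minus strand for C1qc, chr3:98013288-98013537 on the plus strand for Notch2 and chr11:108920099-108920348 on the plus strand for Axin2. All other coordinates below are of mm9, the build that the submitters' processing notes name, as the deposited tables give them. Notch2 had 34 CG pairs in its window and Axin2 24, against 2 for Camp, 1 for Olfr99, 6 for Hal, 3 for H6pd and 2 for C1qc. In Olfr99 an NFI half-site, from -93 to -88 counted from the start, ends at the base before the core of the PPAR-RXR element, from -87 to -79, so both stand in 1 run of capitals. The other long run of Olfr99, from -188 to -179, is the EBF motif matched on both strands. A match describes these letters and says nothing of which factor was bound.

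Values are scaled reads, that is, reads in a region of 230 bp scaled by the authors to one total for every library. One read was worth 2.77 scaled reads in BAT, 0.883 in eWAT, 0.526 in iWAT and 0.651 in the input. On the assumption of a common total of 10 M, the usual setting of HOMER, this makes 3.62 M reads for BAT, 11.3 M for eWAT, 19.0 M for iWAT and 15.4 M for the input. A value of 0 allows up to 3 reads, or 8.30 scaled reads in BAT, 2.65 in eWAT, 1.58 in iWAT and 1.95 in the input. Judging from the values, a depot's list took regions where its library had 15 scaled reads or more and 10 or more times the input value. With 1 library for each depot there is no replicate check, depot and library cannot be told apart, and no test is given. Intervals are 95% and cover counting error only.

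TLE3 medians at promoters were as high as elsewhere or higher, but they stood on a higher input. The median promoter region had 11.1 scaled reads in BAT, 32.7 in eWAT, 28.4 in iWAT and 1.95 in the input. The median of the other 68136 regions was 8.30 in BAT, 26.5 in eWAT, 26.8 in iWAT and 1.30 in the input. Summed over all promoter regions, the TLE3 value was 7.68 times the input in BAT, 17.5 times in eWAT and 15.1 times in iWAT, against 9.00, 23.3 and 23.5 times over the other regions. Relative to the input, promoter regions thus stood lower than the other regions in each library.

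**Figure D1:**
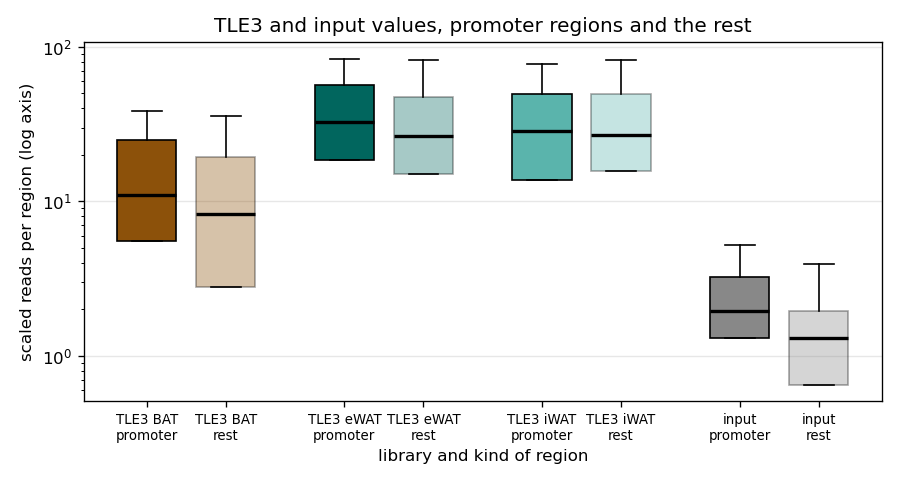
Scaled reads per region (log axis) in the 3 TLE3 libraries and the input, for the 1463 promoter regions (dark) and the other 68136 regions (pale). Lines are medians, boxes run over the middle 50% of regions and the upper whisker ends at the 90th percentile; promoter medians (11.1, 32.7, 28.4 and input 1.95) lie above those of the rest (8.30, 26.5, 26.8 and input 1.30).

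The higher input also bore on which promoter regions were listed. Of the promoter regions with at least 15 scaled reads in BAT, 253 of 650 (38.9%, 35.3 to 42.7%) had less than 10 times the input, against 28.1% (27.5 to 28.7%) of the other regions. In eWAT this was so for 112 of 1246 (8.99%, 7.52 to 10.7%) against 5.26%, and in iWAT for 176 of 1065 (16.5%, 14.4 to 18.9%) against 6.74%. The highest input values at promoters were at Erich1 (13.7), Hsd11b1 (11.7), Ddhd2 (11.7), Hes1 (10.4) and Elmod2 (10.4), each named by the same rule. At Hsd11b1, whose enzyme regenerates active glucocorticoid, the TLE3 values were 27.7 in BAT, 123 in eWAT and 78.3 in iWAT, and only eWAT listed the region. The 78.3 scaled reads in iWAT were past 15 but less than 10 times the input.

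The regions clustered close to the start. The median centre lay 264 bases before it, and 567 of 1463 (38.8%, 36.3 to 41.3%) were centred from 249 bases before it up to the start itself. A further 292 were centred from 499 to 250 bases before the start, 228 from 749 to 500 and 234 from 1000 to 750. Centres after the nearest start numbered 142, with the farthest at 880. The annotation leaves out a further 636 regions with a centre within 1000 bases of a start, of which 515 were annotated as intronic. Their medians were 11.1 scaled reads in BAT, 29.6 in eWAT, 26.8 in iWAT and 1.95 in the input, close to those of the promoter regions.

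Promoter regions made up 2.64% (2.39 to 2.91%) of the BAT list, 2.22% (2.10 to 2.35%) of the eWAT list and 1.76% (1.65 to 1.88%) of the iWAT list, and these intervals do not overlap. When each list was held to its strongest 15042 regions, as many as the BAT list holds, the shares were 2.64%, 2.59% and 2.01%, so the order of BAT and eWAT was within counting error. Within a list the share of promoters did not follow strength in a simple way. With each list divided by value into 10 equal bins, the share in eWAT was 1.61% (1.30 to 1.99%) in the weakest bin, 3.16% (2.71 to 3.67%) in bin 9 and 1.94% (1.60 to 2.36%) in the strongest. The strongest bin held 2.26% (1.62 to 3.14%) in BAT and 1.78% (1.45 to 2.19%) in iWAT.

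Most promoter regions were listed in white fat cells. The BAT list held 397 of the 1463 (27.1%), the eWAT list 1133 (77.4%) and the iWAT list 889 (60.8%), against 21.6%, 73.3% and 72.5% of all joined regions. All 3 depots listed 205 (14.0%, 12.3 to 15.9%), against 15.9% of all joined regions, and eWAT with iWAT listed 497 (34.0%). Listed in BAT alone were 143 promoter regions (9.77%, 8.36 to 11.4%), against 2.99% (2.87 to 3.12%) of the other regions. Listed in eWAT alone were 401 (27.4%, 25.2 to 29.8%), against 23.1%, and in iWAT alone 168 (11.5%, 9.95 to 13.2%), against 22.4%. Promoters were thus more often BAT-alone regions, and less often iWAT-alone regions, than the rest, by more than counting error.

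**Figure D2:**
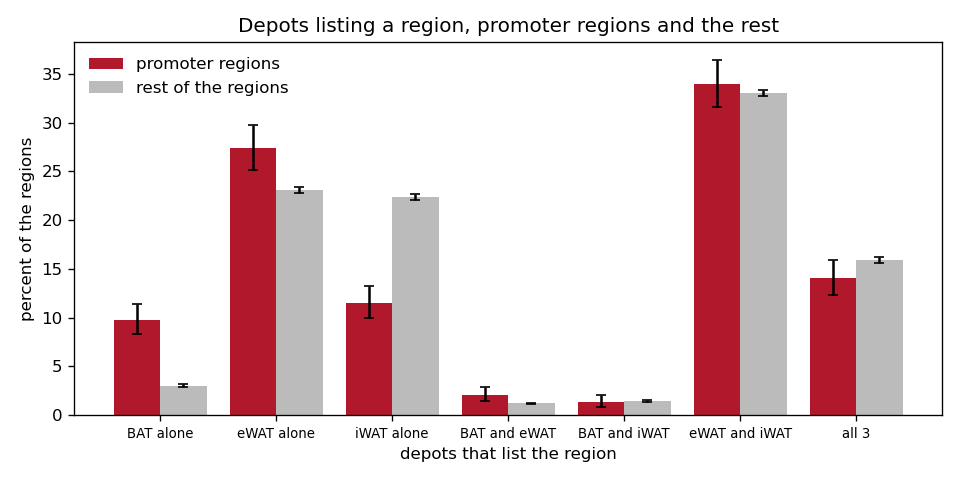
Percent of the 1463 promoter regions (red) and of the other 68136 regions (grey) listed by each combination of depots, with 95% Wilson bars for counting error. BAT alone stands at 9.77% of promoter regions against 2.99% of the rest, and iWAT alone at 11.5% against 22.4%.

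A listing by 1 depot did not mean that the other libraries lacked reads. Another library reached 15 scaled reads at 31 of the 143 BAT-alone promoters (21.7%), at 149 of the 401 eWAT-alone promoters (37.2%) and at 77 of the 168 iWAT-alone promoters (45.8%). The median BAT-alone promoter had 27.7 scaled reads in BAT, 7.95 in eWAT, 7.36 in iWAT and 1.95 in the input. The median eWAT-alone promoter had 5.53 in BAT, 30.0 in eWAT, 12.1 in iWAT and 1.95 in the input. The median iWAT-alone promoter had 5.53, 13.7, 33.6 and 2.28 in the same order. At least 15 scaled reads were present in all 3 libraries at 490 promoter regions (33.5%, 31.1 to 36.0%), against 24.9% (24.6 to 25.2%) of the other regions, whatever the input. BAT held 0 reads at 186 promoter regions (12.7%, 11.1 to 14.5%), against 19.7% of the other regions.

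The strongest promoters were not mainly those of classic fat genes. Ranked by the lowest of the 3 TLE3 values, each relative to its library's median, the 10 highest regions were at Camp, Ankmy1, Hal, Nnt, Pkig, Tbce, Olfr99, Cer1, Osmr and H6pd, none of them on the list of fat cell genes. Camp, which encodes the antimicrobial peptide cathelicidin, had 434 scaled reads in BAT, 388 in eWAT, 232 in iWAT and 10.4 in the input at chr9:109752026-109752256, with its centre 171 bases before the start. Its window above is CpG-poor, and the NFI half-site there lies from -181 to -176. Nnt, the mitochondrial enzyme that makes NADPH from NADH, had 484 in BAT, 185 in eWAT, 166 in iWAT and 7.16 in the input at chr13:120198069-120198299. The BAT value was above both white values at Camp and Nnt.

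Ankmy1 had 149 scaled reads in BAT, 211 in eWAT, 235 in iWAT and 7.16 in the input. Hal, histidine ammonia lyase, had 113, 237, 191 and 7.16 in the same order at chr10:92951268-92951498, and the C/EBP match in its window lies from -150 to -143, beside the centre at -130. Osmr, the oncostatin M receptor, had 85.7 in BAT, 189 in eWAT, 151 in iWAT and 7.81 in the input. At these promoters BAT was the lowest of the TLE3 libraries on the authors' scale. Centred on the median ratio of all regions, the log2 ratio of BAT over eWAT was 0.89 (0.43 to 1.31) at Ankmy1. It was 0.33 (-0.19 to 0.80) at Hal and 0.26 (-0.35 to 0.79) at Osmr, within counting error. BAT over iWAT was 0.79 (0.35 to 1.19) at Ankmy1, 0.70 (0.18 to 1.16) at Hal and 0.64 (0.03 to 1.16) at Osmr. With the regions listed in all 3 depots as the centre, ratios shift by -0.68 over eWAT and -0.83 over iWAT. Only the ratio of Ankmy1 over eWAT then stays above 0. Olfr99 encodes an olfactory receptor, a gene family that fat is not known for, yet its region at chr17:37417391-37417621 had 124 in BAT, 298 in eWAT, 159 in iWAT and 1.30 in the input. Its centre lies at -143, between the EBF match and the C/EBP match from -124 to -117. In all, 9 olfactory receptor genes had a promoter region, with medians of 16.6 in BAT, 49.5 in eWAT, 50.5 in iWAT and 1.30 in the input. The size of the whole family was not counted here. The 9 therefore cannot be set against the 5.49% of all protein-coding genes with a promoter region, and no frequency is read from them.

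Pkig, an inhibitor of protein kinase A, had 49.8 scaled reads in BAT, 256 in eWAT, 179 in iWAT and 4.56 in the input. H6pd, the glucose-6-phosphate dehydrogenase of the endoplasmic reticulum, had 44.2, 188, 168 and 2.60 in the same order. Tbce, a tubulin-folding factor, had 49.8 in BAT, 193 in eWAT, 159 in iWAT and 1.95 in the input. Both white libraries were over 3 times the BAT value at these 3 genes on the authors' scale. On that scale the median log2 ratio of all regions with a mean of at least 30 was already -1.38 for BAT over eWAT and -1.44 over iWAT. Centred on it, BAT over eWAT was -0.94 (-1.76 to -0.30) at Pkig, -0.67 (-1.54 to 0.03) at H6pd and -0.54 (-1.36 to 0.12) at Tbce. BAT over iWAT was -0.37, -0.44 and -0.20 in the same order, within counting error at each. Cer1, a secreted antagonist of BMP and Nodal signals, had 152 in BAT, 245 in eWAT, 157 in iWAT and 3.90 in the input. Among the highest in BAT were also Lmod1, a smooth-muscle actin-binding protein, with 191 in BAT, 206 in eWAT, 129 in iWAT and 4.56 in the input, and Slc25a12, a mitochondrial aspartate-glutamate carrier, with 155, 171, 117 and 4.56. Lrtm1 had 183 in BAT, 109 in eWAT, 132 in iWAT and 2.60 in the input.

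**Figure D3:**
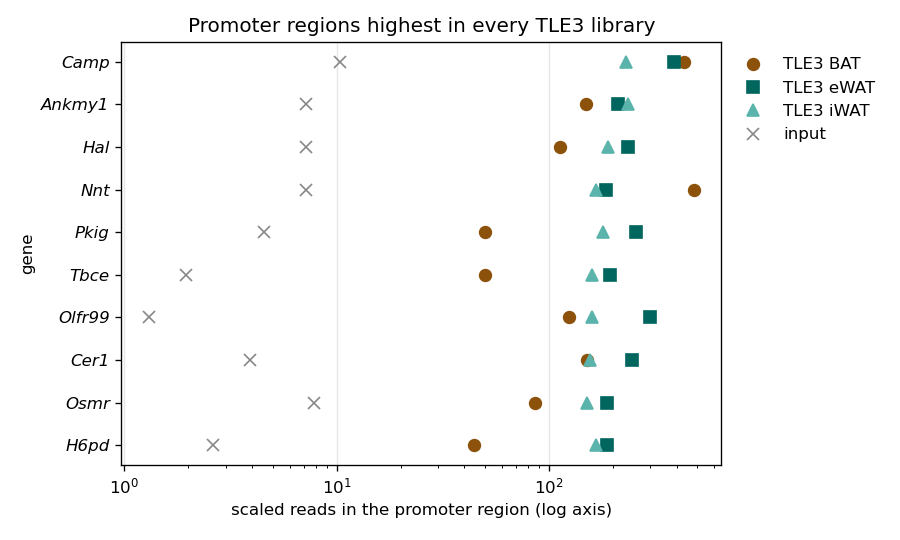
Scaled reads (log axis) in the 3 TLE3 libraries and the input at the 10 promoter regions highest in every TLE3 library, 1 row for each gene. All TLE3 points lie between 44.2 and 484 and all input points between 1.30 and 10.4; at Nnt the BAT point stands apart on the right.

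The promoter was mostly not a gene's sole TLE3 region. Of the 1404 genes, 1057 had a further region within 50 kb, and the median number of regions, promoter included, was 3. In the genes with a further region the promoter held the highest value in 37.6% for BAT, 32.3% for eWAT and 29.3% for iWAT.

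Genes of fat cell identity and lipid storage held promoter regions more often than protein-coding genes at large. The list had 14 of its 36 genes with a promoter region (38.9%, 24.8 to 55.1%), against 5.49% of 21900 protein-coding genes. By depot, 6 of 36 were listed in BAT against 1.58% of all, 12 in eWAT against 4.3%, and 10 in iWAT against 3.3%. The 17 regions had medians of 22.1 scaled reads in BAT, 52.1 in eWAT, 33.1 in iWAT and 2.60 in the input, above those of all promoter regions. Since ChIP shows binding and not expression, this describes the adipocyte label only as far as TLE3 stood at such genes.

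Pparg, which encodes the master regulator of adipogenesis PPARγ, had a pair of promoter regions. The one at chr6:115371724-115371954, 245 bases before the start, had 80.2 scaled reads in BAT, 106 in eWAT, 95.6 in iWAT and 2.60 in the input, and all 3 depots listed it. The one 958 bases before the start had 58.1 in BAT, 183 in eWAT, 80.9 in iWAT and 7.81 in the input, and BAT did not list it. On the authors' scale eWAT was the highest at both. After the centring given above, the log2 ratio of eWAT over iWAT at the nearer one was 0.03 (-0.32 to 0.37), within counting error. On that centred scale BAT was the highest at the nearer one, with 1.00 (0.34 to 1.57) over eWAT and 1.21 over iWAT. Retn, which encodes the adipokine resistin, also had a pair, with 22.1 in BAT, 85.7 in eWAT, 59.4 in iWAT and 1.95 in the input at -89, and 19.4, 133, 134 and 2.60 at -773. Lipe, hormone-sensitive lipase, had 27.7 in BAT, 85.7 in eWAT, 80.9 in iWAT and 6.51 in the input.

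Plin2, a lipid droplet coat protein, had 5.53 scaled reads in BAT, 62.7 in eWAT, 58.3 in iWAT and 3.25 in the input. Fabp4, the fatty acid carrier of fat cells, had 13.8, 46.8, 31.0 and 0.65 in the same order. Lpl, lipoprotein lipase, had 22.1, 52.1, 50.5 and 3.90. At these 3 genes both white values were over 2 times the BAT value on the authors' scale. Centred on the median ratio as above, BAT was lower beyond counting error at Plin2, at -1.81 (-5.20 to -0.22) over eWAT and -1.64 (-5.02 to -0.07) over iWAT. The centred ratios were -0.25 and 0.40 at Fabp4 and 0.22 and 0.33 at Lpl, within counting error. On the authors' scale the white values did not both pass 2 times the BAT value at either Pparg region or at Cidec, Lpin1 and Pck1. Nor did they at the Plin4 region 989 bases before the start, which had 38.7 in BAT, 47.7 in eWAT, 33.1 in iWAT and 2.60 in the input. BAT was the highest library at Lep, which encodes leptin, with 27.7 in BAT, 8.83 in eWAT, 4.20 in iWAT and 1.95 in the input, Cd36, a fatty acid translocase, with 33.2, 18.5, 15.2 and 1.30, and Acsl1, an acyl-CoA synthetase, with 30.4, 24.7, 11.6 and 1.30. Of the genes on the list Fabp4, Lpl, Plin4, Lep, Cd36 and Acsl1 were picked after their values were seen.

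Fatty acid oxidation and acyl-CoA handling were represented by 38 genes, of which 10 had a promoter region (26.3%, 15.0 to 42.0%, against 5.49% of all protein-coding genes). The BAT list held 2 (5.26%, against 1.58% of all), the eWAT list 8 (21.1%, against 4.3%) and the iWAT list 7 (18.4%, against 3.3%). Acot1, an acyl-CoA thioesterase, was the highest, with 130.0 scaled reads in BAT, 196 in eWAT, 116 in iWAT and 7.16 in the input. Acaa2, the last enzyme of mitochondrial β-oxidation, had 22.1, 87.4, 66.7 and 7.81 in the same order, and eWAT alone listed it. Of 79 nuclear genes of oxidative phosphorylation, 7 had a promoter region (8.86%, 4.36 to 17.2%, against 5.49% of all), 1 of them in the BAT list (1.27% of the 79, against 1.58%). Ndufa3, a complex I subunit, was that one, with 33.2 in BAT, 6.18 in eWAT, 0.53 in iWAT and 1.30 in the input.

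Of 35 thermogenic genes, 5 had a promoter region (14.3%, 6.26 to 29.4%, against 5.49% of all protein-coding genes), namely Pdk4, Cidea, Cox7a1, Otop1 and Esrrg. The BAT list held 4 of them (11.4%, against 1.58% of all), the eWAT list 3 (8.57%, against 4.3%) and the iWAT list 3 (8.57%, against 3.3%). Pdk4, the kinase that shuts off pyruvate dehydrogenase, had 27.7 scaled reads in BAT, 78.6 in eWAT, 57.8 in iWAT and 2.60 in the input. Cidea, a lipid droplet protein typical of brown fat, had 22.1, 43.3, 21.6 and 1.95 in the same order. Otop1, a proton channel found in brown fat, had 33.2 in BAT, 5.30 in eWAT, 9.46 in iWAT and 1.30 in the input, and Esrrg, an orphan receptor of mitochondrial genes, had 22.1, 9.71, 4.20 and 1.95. Only BAT listed Otop1 and Esrrg, where the counts behind the BAT values are small.

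Genes of glucose uptake and insulin action had a promoter region in 4 of 37 (10.8%, 4.29 to 24.7%), against 5.49% of all protein-coding genes. Slc2a4, the insulin-regulated glucose transporter GLUT4, had 16.6 scaled reads in BAT, 75.9 in eWAT, 55.7 in iWAT and 3.25 in the input. Irs2, an insulin receptor substrate, had 33.2, 20.3, 7.36 and 2.60 in the same order, and only BAT listed it. Of 20 circadian clock genes 6 had a promoter region (30.0%, 14.5 to 51.9%, against 5.49% of all protein-coding genes). None was in the BAT list (against 1.58% of all), 5 were in the eWAT list (against 4.3%) and 5 in the iWAT list (against 3.3%). Bhlhe40, a repressor of the clock, had 60.8 in BAT, 93.6 in eWAT, 86.2 in iWAT and 6.51 in the input, and Nr1d1, the repressor REV-ERBα, had 30.4, 65.4, 53.6 and 3.90. The BAT reads at both were past 15 but less than 10 times the input.

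Of 49 fat cell transcription factors and coregulators, 6 had a promoter region (12.2%, 5.73 to 24.2%, against 5.49% of all protein-coding genes). None was in the BAT list (against 1.58% of all), 6 were in the eWAT list (against 4.3%) and 1 in the iWAT list (against 3.3%). Runx1, itself a factor that binds Groucho proteins, had 5.53 scaled reads in BAT, 91.0 in eWAT, 65.2 in iWAT and 5.21 in the input. Rxrg, a partner receptor of PPARγ, had 2.77, 60.1, 28.4 and 4.56 in the same order, and Stat5a, a cytokine-activated factor, had 47.0, 53.0, 37.8 and 5.21. Nr1h3, the oxysterol receptor LXRα, had 33.2, 98.9, 55.7 and 8.46, and its centred log2 ratio was -0.14 for BAT over eWAT and 0.71 for eWAT over iWAT. Immediate early genes had a promoter region in 7 of 34 (20.6%, 10.3 to 36.8%, against 5.49% of all), 1 of them in the BAT list (2.94% of the 34, against 1.58%), 6 in the eWAT list (17.6%, against 4.3%) and 4 in the iWAT list (11.8%, against 3.3%). Gadd45b, a stress-induced gene, had 52.5 in BAT, 93.6 in eWAT, 116 in iWAT and 9.11 in the input.

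Groucho proteins are best known for Notch and Wnt targets. Of the 6 Groucho genes only Tle1 had a promoter region (16.7%, 3.01 to 56.4%, against 5.49% of all protein-coding genes). It was listed in BAT alone (16.7% of the 6, against 1.58% of all), with 105 scaled reads in BAT, 41.5 in eWAT, 60.4 in iWAT and 7.16 in the input. Both white values were past 15 scaled reads but less than 10 times the input. Tle1 had a centred log2 ratio of 2.73 in BAT against eWAT and 2.25 against iWAT. Of 25 Notch genes, Hes1 and Notch2 had one (8.00%, 2.22 to 25.0%), against 5.49% of all protein-coding genes, so the share was within counting error of the background. Hes1, a Notch-induced repressor, had 47.0 in BAT, 117 in eWAT, 147 in iWAT and 10.4 in the input, among the 5 highest inputs named above, and the BAT value was less than 10 times the input. Notch2, a Notch receptor, had 33.2 in BAT, 5.30 in eWAT, 5.78 in iWAT and 2.60 in the input at chr3:97817250-97817480, and its CpG-rich window is shown above.

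Of 38 Wnt genes, Wnt5b, Ctnnb1, Wisp1 and Axin2 had a promoter region (10.5%, 4.17 to 24.1%, against 5.49% of all protein-coding genes). The BAT list held 3 of the 38 (7.89%, against 1.58% of all), the eWAT list 1 (2.63%, against 4.3%) and the iWAT list 2 (5.26%, against 3.3%). Ctnnb1, which encodes β-catenin, had 49.8 scaled reads in BAT, 0.88 in eWAT, 0.53 in iWAT and 3.25 in the input at chr9:120842358-120842588. This rests on 18 reads in BAT, 1 in eWAT, 1 in iWAT and 5 in the input, so both white values lay below the input. Axin2, a scaffold of the β-catenin destruction complex and a Wnt target, had 24.9 in BAT, 6.18 in eWAT, 3.68 in iWAT and 0.65 in the input. Wisp1, a matrix protein induced by Wnt, had 11.1, 2.65, 24.7 and 1.30 in the same order. The Ctnnb1 and Axin2 promoters were thus listed in BAT alone and the Wisp1 promoter in iWAT alone.

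Markers of other cells were counted the same way. Of 15 macrophage genes 9 had a promoter region in the eWAT list (against 4.3% of all protein-coding genes), C1qa, C1qb, C1qc, Cd14, Fcer1g, Lyz2, Mrc1, Ptprc and Tyrobp, and no other depot listed any of them. C1qc, a chain of complement C1q, had 0 scaled reads in BAT, 56.5 in eWAT, 11.6 in iWAT and 2.60 in the input at chr4:136448874-136449104, and its window above holds the ETS match from -195 to -188. C1qa had 0 in BAT, 41.5 in eWAT, 6.83 in iWAT and 1.95 in the input. Cd14, a lipopolysaccharide receptor, had 5.53, 33.6, 8.41 and 2.60 in the same order. Over the 9 regions BAT ranged up to 5.53 with 6 at 0, eWAT ran between 15.9 and 56.5, iWAT between 0.53 and 11.6, and the input up to 2.60.

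Summed over the 9 macrophage promoters the value was 13.8 in BAT, 251.7 in eWAT, 56.8 in iWAT and 13.7 in the input, so the BAT sum stood at the level of the input. The eWAT list took regions of 15 scaled reads or more. That the eWAT and iWAT ranges did not overlap thus follows largely from the listing in eWAT alone. Of all 401 eWAT-alone promoters, another library reached 15 scaled reads at 149 (37.2%). None of the 9 reached a mean of 30 scaled reads. A 0 in BAT allows up to 8.30 scaled reads, and with all 9 listed by eWAT the values of the other depots were low by the choice of regions. In bulk chromatin, fewer cells of a type and less binding in each cell cannot be told apart, and cells other than adipocytes were allowed in these cultures. Their part in the eWAT values at other promoters was not tested. The 5 fibroblast genes with a promoter region of 25 (20.0%, 8.86 to 39.1%, against 5.49% of all protein-coding genes), Postn, Vim, Dcn, Pi16 and Col3a1, summed to 47.0 in BAT, 172 in eWAT, 161 in iWAT and 9.75 in the input. The lists of mesothelial, skeletal muscle and neuronal genes had none of 9, 13 and 12, the endothelial list 1 of 13, Tek, and the hepatocyte list 1 of 13, Trf.

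**Figure D4:**
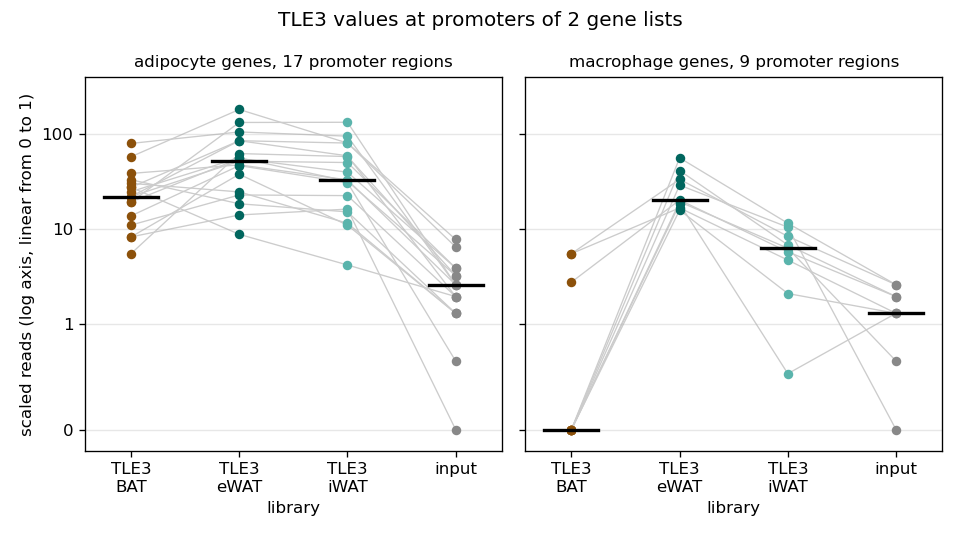
Scaled reads in each library (log axis, linear between 0 and 1) at the 17 promoter regions of adipocyte genes and the 9 of macrophage genes; each point is a region, grey lines join a region over the libraries and black bars are medians. The macrophage regions have medians of 0 in BAT, 20.3 in eWAT, 6.31 in iWAT and 1.30 in the input, against 22.1, 52.1, 33.1 and 2.60 for the adipocyte regions.

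Other immune genes with a promoter region listed in eWAT alone were picked after their values were seen. Cd53, a leukocyte tetraspanin, had 0 scaled reads in BAT, 53.0 in eWAT, 9.98 in iWAT and 0 in the input. Clec4a1, a myeloid lectin receptor, had 0 in BAT, 46.8 in eWAT, 7.88 in iWAT and 1.95 in the input. Nlrp3, the inflammasome sensor, had 0, 37.1, 6.83 and 3.25 in the same order. Listing in eWAT alone favours a high eWAT value and low values elsewhere, so the order of the libraries at these genes is not read as a result. Gene families that share the start of their symbol and had at least 6 genes here included 8 Ccl chemokine genes, with medians of 2.77 in BAT, 38.0 in eWAT, 16.3 in iWAT and 0.975 in the input. The 16 interleukin and interleukin receptor genes named Il had medians of 11.1 in BAT, 43.7 in eWAT, 44.4 in iWAT and 1.30 in the input, and the 7 Gbp genes of interferon-induced GTPases had 27.7, 58.3, 45.2 and 2.60. The full sizes of these families were not counted.

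Some immune-response promoters, likewise picked after their values were seen, were listed in all 3 depots. Ccl2, a monocyte chemoattractant, had 41.5 scaled reads in BAT, 92.7 in eWAT, 53.1 in iWAT and 2.60 in the input. Gbp2 had 74.7, 134, 96.7 and 6.51 in the same order, and Il33, an alarmin, had 30.4, 98.9, 62.5 and 1.95 at -115. The eWAT value was the highest at these 3 on the authors' scale, with BAT well above the input. The largest family was that of microRNA genes, 39 with 40 regions, of which 11 were in the BAT list, 31 in the eWAT list and 24 in the iWAT list, near the 27.1%, 77.4% and 60.8% of all promoter regions. Mir199a-1, also picked after its values were seen, was the highest of them in BAT, with 80.2 in BAT, 95.4 in eWAT, 84.6 in iWAT and 5.21 in the input.

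BAT-alone promoters were more frequent at CpG-rich than at CpG-poor start sites. Windows of 300 bases, from 250 before to 50 after the start, were taken from RefSeq for 970 of the 1175 protein-coding genes with a promoter region on the chromosomes that the table covers (82.6%). A window was called CpG-rich with over 50% GC and an observed-to-expected CpG ratio over 0.6, and a gene with several starts where no fewer of its windows were CpG-rich than not. Of the 453 regions at CpG-rich starts, 70 (15.5%, 12.4 to 19.1%) were listed in BAT alone, against 27 of the 562 at CpG-poor starts (4.80%, 3.32 to 6.90%). Listed in eWAT alone were 24.7% (21.0 to 28.9%) of CpG-rich and 31.7% (28.0 to 35.6%) of CpG-poor ones. For iWAT alone the shares were 11.5% and 9.96%, and for all 3 depots 14.1% and 13.9%.

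In scaled reads the CpG-rich starts had medians of 16.6 in BAT, 30.9 in eWAT, 28.4 in iWAT and 1.95 in the input. The CpG-poor starts had 11.1 in BAT, 33.6 in eWAT, 27.3 in iWAT and 1.95 in the input. In all, 45.5% (42.4 to 48.6%) of genes with a promoter region had a CpG-rich window, against 47.0% of all protein-coding genes, and 9.48% (7.80 to 11.5%) had a start on the other strand within 1000 bases, against 13.2%. Of the genes with a region centred from 250 bases before to 50 after a start, 32.5% (28.3 to 37.0%) were CpG-rich. Of the 123 BAT-alone protein-coding genes 97 had a window (78.9%), under the 80% set as the least for a gene set. Of those 97 genes 72.2% (62.5 to 80.1%) had a CpG-rich window, and this share and the BAT-alone counts above hold only for the genes with a window.

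**Figure D5:**
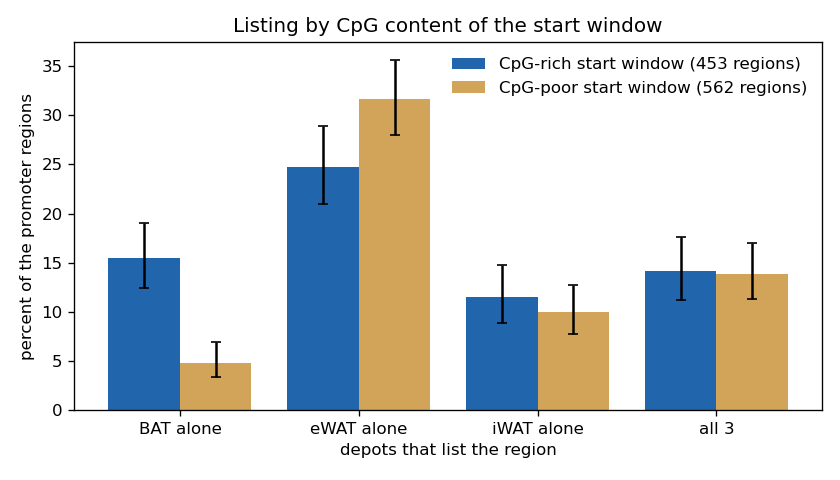
Percent of promoter regions listed in BAT alone, eWAT alone, iWAT alone or all 3 depots, at CpG-rich (blue) and CpG-poor (tan) start windows, with 95% Wilson bars for counting error. BAT alone takes 15.5% of CpG-rich and 4.80% of CpG-poor starts, while the bars of iWAT alone and of all 3 depots overlap.

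Further BAT-alone promoters, again picked after their values were seen, were those of Kmt2a and Rptor, whose CpG class is not given here. Kmt2a, a histone methyltransferase, had 49.8 scaled reads in BAT, 17.7 in eWAT, 9.46 in iWAT and 2.60 in the input. Rptor, a subunit of the mTORC1 kinase, had 36.0, 7.95, 11.6 and 2.60 in the same order. Their BAT values rested on 18 and 13 reads, and the white values lay between those of BAT and the input.

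Motif matches were counted over all start windows of those genes, on both strands. A gene with several starts entered with every window, also those where no region was centred. The 1359 windows below came from 970 genes and the 622 from 437 genes. Windows of 1 gene are not independent, so the intervals, which treat them as such, are too narrow. The C/EBP motif (TTGCNNAA) was in 14.7% (12.9 to 16.7%) of 1359 windows of genes with a promoter region, and in 19.5% (16.5 to 22.7%) of 622 windows of genes whose region was centred within the window, against 10.2% (9.77 to 10.6%) of 21263 windows of all protein-coding genes. The NFI half-site (TTGGCA) was in 16.9%, 22.7% (19.6 to 26.1%) and 13.1% in the same order. The AP-1 motif (TGANTCA) was in 10.6%, 12.2% (9.87 to 15.0%) and 6.99%, and the EBF motif (CCCNNGGGA) in 10.1%, 11.4% (9.15 to 14.2%) and 7.26%. The intervals of the centred set lay above the share of all windows for these 4 motifs, and also for the ETS and TATA motifs given below.

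In the centred set, motifs of the factors best known to hold Groucho proteins were within counting error of all windows. The TCF/LEF motif (CTTTGAT) was in 3.05% (1.96 to 4.72%) of the windows of the centred set against 3.22% of all windows, the HES motif (CACGNG) in 29.1% (25.7 to 32.8%) against 31.4%, and the RUNX motif (TGNGGTT) in 15.4% (12.8 to 18.5%) against 13.9%. In windows of genes listed in eWAT alone the RUNX motif was in 18.1% (14.7 to 22.1%), against the same 13.9% of all windows. In those of BAT-alone genes the HES motif was in 44.6% (36.3 to 53.2%), but as too few of these genes had a window, nothing is read from it. The core of the PPAR-RXR element (AGGNCAAAG) was in 2.25% (1.35 to 3.74%) against 1.79%, within counting error. The ETS motif of the PU.1 kind (GAGGAAGT) was in 5.14% (3.67 to 7.17%) against 3.13%, and CCAAT in 32.2% (28.6 to 35.9%) against 38.2%. Of the motifs common in CpG-rich promoters, the Sp motif (GGGCGG) was in 39.1% (35.3 to 43.0%) against 46.2%, and the NRF1 motif (GCGCATGC) in 0.804% (0.344 to 1.87%) against 3.52%. The TATA motif (TATAAA) was in 15.8% (13.1 to 18.8%) against 12.6%, the CRE motif (TGACGTCA) in 1.93% against 2.23%, and the E-box (CACGTG), every match of which is also a HES match, in 6.59% against 7.84%. CpG-poor windows are more common in the centred set, and their part in these shares was not tested.

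For the comparison of depots, ratios were taken at the 600 promoter regions whose mean over the TLE3 libraries reached 30 scaled reads, and centred on the median of all 23211 such regions. The centring shifts were large for BAT, at a log2 ratio of -1.38 against eWAT and -1.44 against iWAT, and 0.12 for eWAT over iWAT. Calls are ratios past 2-fold, with no test. Centred ratios therefore say how a promoter stood among all regions, not the absolute amount of TLE3.

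For BAT over eWAT the promoter regions had a median log2 ratio of 0.02 (-0.10 to 0.12, an interval over regions), with 80 past 2-fold higher in BAT (13.3%, against 16.4% of all regions) and 103 past 2-fold lower (17.2%, against 21.1%). For BAT over iWAT the median was 0.19 (0.08 to 0.30), with 136 higher (22.7%, against 18.9%) and 88 lower (14.7%, against 21.8%). For eWAT over iWAT it was 0.16 (0.08 to 0.19), with 24 higher (4.00%, against 6.55%) and 45 lower (7.5%, against 14.5%). The split of these counts depends on the minimum and on the call. With no minimum mean it was 254 higher and 152 lower for eWAT over iWAT, and 351 and 333 for BAT over eWAT. By whole counting intervals past 0 it was 158 and 116 of the 600 for eWAT over iWAT, against 5589 and 6815 of all 23211 regions. For BAT over eWAT it was 85 and 76, against 3925 and 3610. By the medians, promoters stood higher relative to iWAT than all regions did, in BAT and in eWAT alike, and these comparisons share the iWAT library. Without centring, 13 were higher and 386 lower in BAT against eWAT, and 10 and 356 against iWAT. Centred on the regions listed in all 3 depots, the counts were 32 and 227, and 35 and 224. Apart from the whole-interval counts, the shares of all regions at these other settings were not counted. The promoter counts at those settings are therefore not read as a result about promoters.

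The largest ratios for BAT over eWAT were at Pigt, Hexim2, Zfp27, Cmtm2a and Mir6715. Pigt, a subunit of the GPI transamidase, had 77.4 scaled reads in BAT, 13.3 in eWAT, 149 in iWAT and 5.21 in the input at chr2:164321911-164322141. Its region, centred at -999, was low in eWAT and high in the other two. Zfp27, a zinc-finger protein, had 30.4, 7.95, 66.2 and 1.95 in the same order, and Cmtm2a had 83.0, 22.1, 99.9 and 2.60. Hexim2, an inhibitor of the elongation factor P-TEFb, had 66.4 in BAT, 16.8 in eWAT, 14.2 in iWAT and 5.21 in the input, with a log2 ratio of 3.36 against eWAT and 3.67 against iWAT. Mir6715 had 49.8, 17.7, 32.6 and 3.25. Hexim2, Cmtm2a and Mir6715 were past 2-fold against both white depots, with 1.19 over iWAT for Cmtm2a and 2.08 for Mir6715, and of the 5 Hexim2 alone was listed in BAT alone.

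Further ratios among the largest for BAT over iWAT were at Lzts2, Gcgr and Arhgap11a. Gcgr, the glucagon receptor, had 119 scaled reads in BAT, 50.3 in eWAT, 34.7 in iWAT and 5.86 in the input, with a log2 ratio of 3.22 for BAT over iWAT. Lzts2, which keeps β-catenin out of the nucleus, had 58.1, 25.6, 13.7 and 5.21 in the same order. Nnt, given above, had log2 ratios of 2.77 (2.47 to 3.06) against eWAT and 2.98 (2.71 to 3.25) against iWAT, and was highest in BAT on the authors' own scale as well.

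At the lowest ratios the BAT library held no reads. Sulf1, an enzyme that trims heparan sulfate, had 0 scaled reads in BAT, 98.0 in eWAT, 30.0 in iWAT and 2.60 in the input. Set against the 3 reads that a 0 allows, Sulf1 was at least 11.8-fold lower in BAT than in eWAT on the authors' scale and at least 4.54-fold lower after centring. Ptk7, a Wnt co-receptor, had 0 in BAT, 85.7 in eWAT, 9.46 in iWAT and 4.56 in the input, and was at least 3.96-fold lower after centring. Sptssa, a subunit of serine palmitoyltransferase, had 0, 78.6, 47.3 and 1.95 in the same order, Mmp8, neutrophil collagenase, had 0, 71.5, 33.6 and 2.60, and Clec12a, a myeloid lectin receptor, had 0, 69.8, 20.5 and 1.95. The bounds after centring were 3.64-fold for Sptssa, 3.31-fold for Mmp8 and 3.23-fold for Clec12a. Of the 8 promoter regions in these comparisons with 0 reads in BAT, the bound against eWAT was past 2-fold for 8 and against iWAT for 3, among them Ugt1a7c with at least 2.92-fold. These regions had to reach a mean of 30 scaled reads with 0 in BAT, so their white values were high by the choice of regions. The bounds therefore describe these regions only, and were not counted over all regions.

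Between the white depots Ptk7 also had the highest ratio, a log2 value of 3.02 for eWAT over iWAT. Dmpk, a kinase known from myotonic dystrophy, had 8.30 scaled reads in BAT, 82.1 in eWAT, 14.7 in iWAT and 3.90 in the input, and Hoxa2, a homeobox factor of hindbrain patterning, had 24.9, 85.7, 18.9 and 1.95. Both were over 4-fold higher in eWAT than in iWAT. The lowest ratios were at Pigt, with a log2 value of -3.57, Tmcc3, Zfp27, Gm16157 and Omd. Omd, the bone and matrix proteoglycan osteomodulin, had 2.77 in BAT, 15.0 in eWAT, 83.0 in iWAT and 5.21 in the input. Tmcc3 had 3 promoter regions at different starts, of which the one listed in iWAT alone had 24.9 in BAT, 16.8 in eWAT, 139 in iWAT and 3.90 in the input, and another had 36.0, 92.7, 51.0 and 4.56, so the regions of 1 gene ran in opposite directions between eWAT and iWAT.

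Of the developmental factors that mark depots, 2 of 29 had a promoter region (6.90%, against 5.49% of all). En1, a homeobox gene, had 30.4 scaled reads in BAT, 36.2 in eWAT, 64.6 in iWAT and 3.90 in the input, and only iWAT listed it. Tcf21, a mesenchymal factor, had 0 reads in BAT, 18.5 in eWAT, 2.10 in iWAT and 1.30 in the input, and only eWAT listed it. Of the housekeeping lists, 4 of 79 ribosomal protein genes and 1 of 21 heat shock genes had a promoter region, near the 5.49% of all protein-coding genes.

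Across the promoter regions the white libraries ranked regions more alike than either did with BAT. Spearman's rho over the 1463 regions was 0.34 for BAT with eWAT, 0.40 for BAT with iWAT and 0.70 for eWAT with iWAT, and over the other regions 0.47, 0.50 and 0.50. With the input, rho at promoters was 0.43 for BAT, 0.57 for eWAT and 0.58 for iWAT. These describe regions within libraries of unequal depth, with joint selection by the lists, and regions are not replicates.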

How the data were processed

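ChIP-seq of TLE3 in BAT, eWAT and iWAT adipocytes and an iWAT input were read from 3 deposited tables. Per the file headers these have the layout of HOMER peak annotation. STAR, HOMER and mm9 are named by the submitters' processing notes; the sources used here do not give how peaks were called. The deposited values are a signal, reads per region that the authors scaled to the same total in every library; the deposited score was 0 in every line and was not used. Within a library 100% of values were whole multiples of 1 read within 0.1 read, so reads could be counted, yet with 1 library per depot no count model was run.

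Tables were joined by region. Log2 ratios took 0.5 read as pseudocount and were centred on regions whose mean reached 30 scaled reads, with exact Clopper-Pearson intervals; shares have Wilson intervals. The ratio script was tested on simulated data. Of the 21 gene lists all 627 entries matched the RefSeq table, and 1460 of 1463 regions had a gene in it. Named genes are those highest in every library (10) or in 1 library (5 each), with the highest input (5), the 5 highest and lowest called ratios of each pair, the genes with most promoter regions, and up to 4 of each list; others are said to be picked after their values were seen or complete a count. The members and lists were chosen with earlier results of these data known. Alternatives varied centring, minimum value, input and promoter definition. Python 3.11.15, pandas 2.3.3, numpy 2.4.6 and scipy 1.17.1 were used. The values of some promoter regions are not reported here.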

Additional observations from a re-analysis of the deposited data

How the results depend on the processing

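Of 49 alternatives, 25 left the value within counting error, or a count within 1.5 times, 22 moved it and 2 reversed it. A count was judged by its total and not by its direction, and only a median could be called reversed. For BAT over iWAT centred on the regions listed in all 3 depots, the total of calls stayed within 1.5 times. Its split went from 136 higher and 88 lower to 35 and 224. For BAT over iWAT the promoter median of 0.19 became -1.25 without centring and -0.64 when centred on the regions listed in all 3 depots; BAT over eWAT became -1.36 and -0.67, and eWAT over iWAT 0.28 without centring. The distance of a promoter median from the median of all regions does not depend on the centre, but the ratios and calls do. Promoter regions past 2-fold without centring numbered 399 in BAT against eWAT and 366 against iWAT (183 and 224 with it). The higher share of the calls was then 3.26% and 2.73%, and 12.4% and 13.5% with the common regions as the centre, against 43.7% and 60.7%; for eWAT over iWAT it was 46.6% without centring, against 34.8%. With no minimum mean the counts were 684, 729 and 406 (69 in the main setting for eWAT over iWAT), of which 51.3%, 69.0% and 62.6% were higher, and with a mean of at least 60 they were 43, 55 and 13. Shares of all regions were not counted without centring, with the common regions as the centre or at these minima. Those counts are therefore not set against other regions. By whole intervals past 0, 274 passed for eWAT over iWAT, 158 higher and 116 lower, against 24 and 45; with BAT on top, 52.8% of the calls against eWAT were then higher and 71.0% of those against iWAT.

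Within 1 kb of a start the share was 3.68% of the BAT list, 3.17% of the eWAT list and 2.60% of the iWAT list. Among regions of at least 30 scaled reads it was 2.53% in eWAT and 1.99% in iWAT, and among the strongest as many as the BAT list 2.59% and 2.01%. Promoters listed in all 3 depots were 28.0% at a mean of at least 30, and 33.5% had 15 scaled reads in each library whatever the input. The median input was 5.21 at a mean of at least 60. The cause of these moves was not tested.

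No paired analysis was possible because each depot has 1 library, and leaving one out ends the comparison for the same reason. The shallow BAT library limits its values most, since 6 reads sufficed for the BAT list, against 17 in eWAT and 29 in iWAT.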
